A study of Tupaia belangeri chinensis with 12 samples.

Results

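Microglia are the resident macrophages of the brain. They arise from yolk sac precursors, enter the cortex while neurons are still being made, and depend on signalling through the receptor CSF1R. C1q, the recognition molecule that starts the classical complement pathway, is assembled from the products of C1QA, C1QB and C1QC, and in brain tissue these transcripts come largely from microglia. The same cells are recognised by AIF1 (the actin-bundling protein IBA1), by the fractalkine receptor CX3CR1, by the ADP receptor P2RY12 and by TYROBP (DAP12), an adaptor that carries the signal of several myeloid receptors, TREM2 among them.

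These genes were followed in fetal cortex of the Chinese tree shrew (Tupaia belangeri chinensis), dissected by laser capture into layers and labelled embryonic day 37 throughout, with no treatment and no genetic change named in the labels. Poly(A) RNA was sequenced from 3 libraries each of the cortical plate (CP), where new neurons settle, and of the 3 germinal layers below it, the outer subventricular zone (OSVZ), the inner subventricular zone (ISVZ) and the ventricular zone (VZ). The genes were chosen by symbol from a list of 9 microglia and complement genes. The tables held 8 of the 9 under these symbols among 81414 gene IDs, and TREM2 was not analysed here. The labels do not state whether libraries of 1 layer stem from different animals, and the p-values therefore cover only the spread between libraries, part or all of which may be technical. Each library is a mixture of cells, and fewer microglia cannot be told apart from less RNA per microglial cell.

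All values are FPKM, fragments normalised to transcript length and to the fragments mapped in each library, divided by a scaling factor per library between 0.947 and 1.06. The relative depth computed from the deposited bounds ranged from 0.688 in VZ 1 to 1.68 in OSVZ 3, and 12157 to 13417 genes per library reached 1 FPKM. The CP label was checked against the germinal layers with genes of progenitors and neurons. The progenitor genes PAX6, SOX2, EOMES, MKI67 and TOP2A passed as lower in CP and the neuronal genes NEUROD6, TBR1, MAPT and SYT4 as higher in CP, with mean levels in CP between 0.231 FPKM for EOMES and 665 FPKM for NEUROD6. Of the 10 genes of this check, 3 did not pass between CP and OSVZ, 8 between OSVZ and ISVZ and 9 between ISVZ and VZ. The check therefore does little to separate ISVZ from OSVZ and VZ.

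Taken as a sum, the microglia and complement genes were lower in CP than in each germinal layer. Single genes could be low elsewhere too, as C1QC was under 1 FPKM in every ISVZ library. Their summed level was 3.17 to 6.37 FPKM in the CP libraries, against 28.3 to 35 in OSVZ, 10.8 to 24.1 in ISVZ and 25.8 to 33.8 in VZ. No CP library reached the lowest germinal library. In a limma fit over all 14101 tested genes (at 1 FPKM or more in at least 3 libraries, log2 of FPKM plus 1, Benjamini-Hochberg adjusted p under 0.05), all 8 differed among the 4 layers, where 51.8% of all tested genes did. All 8 were also lower in CP than in the mean of the germinal layers, where 28.7% of tested genes were lower and 24.0% higher. The median log2 difference was −1.39 over the 8 genes and −0.0464 over all tested genes. Of the 8, all but TYROBP reached the filter through germinal libraries alone, which left them no way to pass without being higher there. Their counts as lower in CP, or as lying below every germinal library, therefore cannot be read against the shares of tested genes. The count of lower genes stayed at 8 when no filter was used, where 3949 genes were lower in CP. The share of all genes in that fit was not computed. For 6 of the 8 every CP library lay below every germinal library, which held for 19.3% of tested genes, and the exceptions were C1QC and TYROBP.

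**Figure D1:**
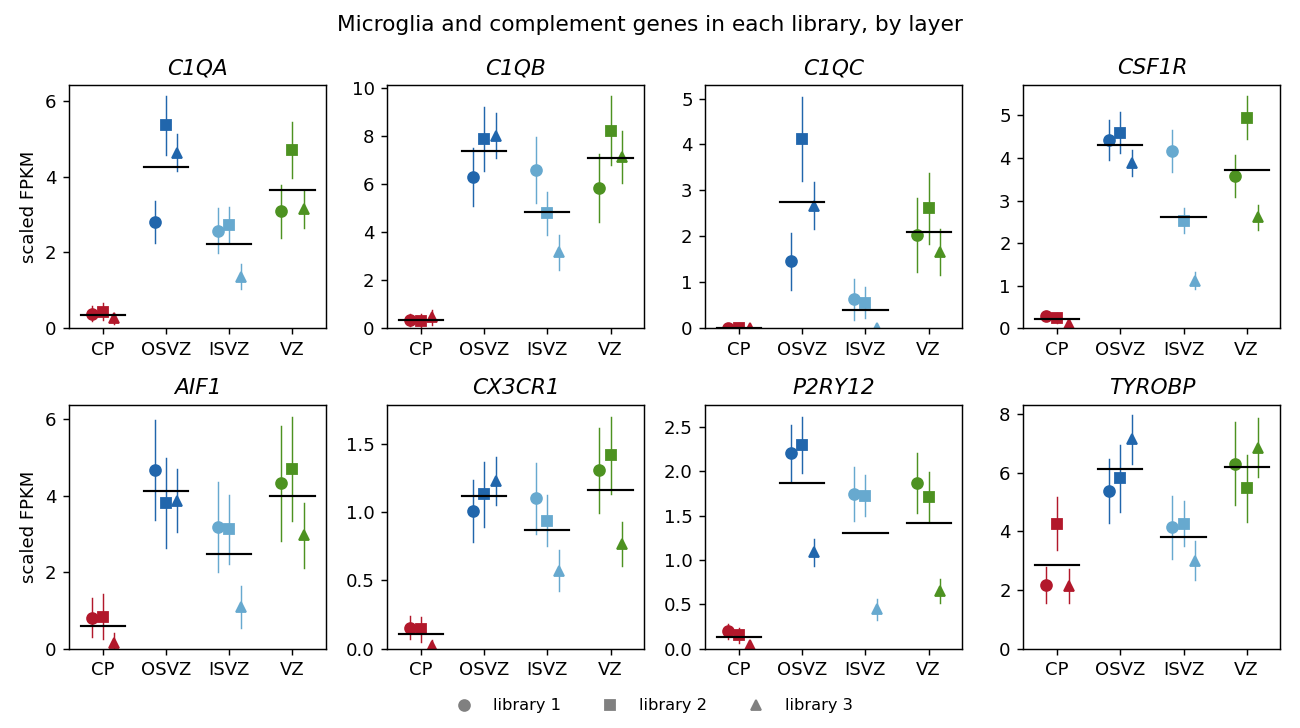
Scaled FPKM of the 8 genes in each of the 12 libraries, 1 panel per gene, with layers from CP to VZ along the horizontal axis and the level on the vertical axis. Marker shapes give the replicate number in the labels, vertical lines the deposited bounds, and short horizontal lines the layer means; the CP points lie near 0 for every gene but TYROBP.

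The C1q genes come first. C1QB, the B chain, was the most abundant chain in every OSVZ, ISVZ and VZ library. It stood at 0.341, 0.307 and 0.454 FPKM in CP 1 to 3, against 6.30, 7.88 and 8.01 in OSVZ, 6.59, 4.78 and 3.16 in ISVZ and 5.86, 8.22 and 7.13 in VZ. The CP libraries were far below all others, OSVZ and VZ overlapped throughout, and ISVZ 3 was the lowest germinal library. The log2 difference between CP and the germinal mean was −2.41 ± 0.16 (SE, limma adjusted p = 5.7e-07), the largest of the 8 genes. Since 1 is added before the logarithm, such differences understate the change of genes at low levels. On the FPKM scale itself the germinal mean was 17.5 times the CP mean, a ratio that rests on only about 5 to 9 fragments per CP library, as implied by the deposited bounds.

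C1QA, the A chain, had 0.389, 0.432 and 0.260 FPKM in CP, against 2.81, 5.34 and 4.62 in OSVZ, 2.57, 2.74 and 1.36 in ISVZ and 3.08, 4.70 and 3.13 in VZ. Every ISVZ library was below every OSVZ and VZ library, and every CP library was below ISVZ. CP was lower than the germinal mean by a log2 difference of −1.63 ± 0.19 (limma adjusted p = 2.8e-05), and the FPKM of the germinal layers averaged 9.36 times that of CP. Its CP values rest on about 11 to 17 fragments each.

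C1QC, the C chain, was the scarcest of the 3 chains. In CP it was listed at 0.00817 FPKM in CP 2, at 0 in CP 3 and at a value next to 0 in CP 1, where the deposited upper bound was 0.0828. It had 1.46, 4.12 and 2.66 FPKM in OSVZ, 0.636 and 0.561 in ISVZ 1 and 2 with a value next to 0 in ISVZ 3, and 2.03, 2.61 and 1.65 in VZ. ISVZ stood apart from both OSVZ and VZ with no overlap, while ISVZ 3 sat among the CP libraries. The log2 difference of CP from the germinal mean was −1.30 ± 0.22 (limma adjusted p = 0.000416), and no fold is given against a layer at or near 0. The upper bound of ISVZ 3 was 0.0719, and its relative depth was 1.18, against 0.749 and 1.22 in ISVZ 1 and 2. The reason for the value next to 0 there was not tested.

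As shares of the summed C1q chains, C1QC made up 13.8% to 23.8% in the OSVZ libraries and 13.9% to 18.5% in VZ, while the 2 ISVZ libraries with a value had 6.49% and 6.94%. C1QA held 26.6% to 30.8% in OSVZ, 26.2% to 33.9% in ISVZ and 26.3% to 30.3% in VZ. The share of C1QA thus overlapped among the 3 germinal layers, and that of C1QC did not overlap between ISVZ and the other 2. In the tables C1QC and C1QB (gene IDs TSDBGID.2651 and TSDBGID.7619) lie 3966 bases apart on chr13, at 89262708 to 89265478 and 89269445 to 89275285, and C1QA (TSDBGID.26488) lies at 5597 to 9270 of an unplaced contig. The span of C1QC falls inside that of ZBTB40, whose mean level was 7.66 FPKM. Use of strand in the counting is not given, so reads of overlapping genes cannot be told apart and their values are uncertain. ZBTB40 itself was also lower in CP, with 4.71 to 5.75 FPKM there and 7.40 to 9.60 over the germinal libraries, a narrower range than that of C1QC. The part of shared reads in the values of C1QC was not tested.

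Next are the receptors. CSF1R, the receptor for CSF1 and IL34 that microglia need to survive, had 0.298, 0.241 and 0.106 FPKM in CP, against 4.43, 4.59 and 3.88 in OSVZ, 4.17, 2.53 and 1.12 in ISVZ and 3.57, 4.94 and 2.60 in VZ. The 3 OSVZ libraries were close together and the ISVZ libraries widely spread, and all CP libraries lay below ISVZ 3. The log2 difference of CP was −1.84 ± 0.23 (limma adjusted p = 4.66e-05), with germinal FPKM averaging 16.5 times that of CP. CSF1R (TSDBGID.12541) spans 36476613 to 36527111 on chr19, overlaps HMGXB3 (5.72 to 5.85 FPKM in CP, 4.97 to 7.36 in the germinal libraries) and ends 245 bases from PDGFRB, a pericyte gene described with the vessel markers.

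P2RY12, the receptor through which microglial processes move toward ADP, had 0.193, 0.148 and 0.0346 FPKM in CP, against 2.21, 2.29 and 1.08 in OSVZ, 1.74, 1.72 and 0.441 in ISVZ and 1.87, 1.71 and 0.652 in VZ. Within each layer the library numbered 3 was the lowest, and even so the lowest germinal library was above all of CP. The log2 difference was −1.12 ± 0.24 (limma adjusted p = 0.0023), and germinal FPKM averaged 12.2 times that of CP, whose values rest on about 3.2 to 22 fragments. The difference among the 4 layers had an adjusted p of 0.012 in limma, the largest of the 8 genes, and it did not pass without CP 3 (0.0520). P2RY12 (TSDBGID.17028, chr25, 22499619 to 22548839) lies inside MED12L, which itself had 0.271 to 0.627 FPKM in CP and 1.34 to 3.44 in the germinal libraries. Like P2RY12, MED12L was lower in every CP library than in every germinal library. Unlike P2RY12, MED12L was highest in number 3 in CP and OSVZ. The part of shared reads in the values of P2RY12 was not tested.

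CX3CR1, the receptor for the neuronal chemokine CX3CL1, was the least abundant of the receptors, at 0.153, 0.141 and 0.0210 FPKM in CP, against 1.01, 1.13 and 1.23 in OSVZ, 1.10, 0.938 and 0.572 in ISVZ and 1.31, 1.42 and 0.768 in VZ. The 3 germinal layers overlapped each other and none reached CP. The log2 difference was −0.88 ± 0.14 (limma adjusted p = 0.000253), and the germinal mean was 10.02 times that of CP on the FPKM scale, where the CP values rest on about 1.1 to 13.3 fragments. CX3CR1 (TSDBGID.18820) lies on chr29, at 5820917 to 5843841.

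The remaining members were AIF1 and TYROBP. AIF1 had 0.807, 0.831 and 0.153 FPKM in CP, against 4.68, 3.82 and 3.87 in OSVZ, 3.17, 3.12 and 1.09 in ISVZ and 4.32, 4.69 and 2.96 in VZ. OSVZ was above ISVZ in every library, and ISVZ 3 came nearest to CP without reaching it. The log2 difference of CP was −1.48 ± 0.22 (limma adjusted p = 0.000213), and germinal FPKM averaged 5.91 times that of CP. AIF1 (TSDBGID.21254, chr4, 131598123 to 131600193) lies inside the span of NCR3, which averaged 0.497 FPKM.

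TYROBP had 2.16, 4.26 and 2.14 FPKM in CP, against 5.39, 5.82 and 7.14 in OSVZ, 4.14, 4.26 and 3.005 in ISVZ and 6.31, 5.47 and 6.86 in VZ. CP 2 was as high as the ISVZ libraries, and CP and ISVZ were both below all of OSVZ and VZ. The CP mean was 53.1% of the germinal mean, where the other members with a ratio were at 5.71% to 16.9%. The log2 difference was −0.74 ± 0.16 (limma adjusted p = 0.00287). TYROBP is listed on chr22 from 29348905 to 29396996 (TSDBGID.15430), a span of 48092 bases that overlaps the adaptor gene HCST by 134. HCST was listed at 0 in all CP libraries and averaged 0.0106 FPKM over the 12.

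**Figure D2:**
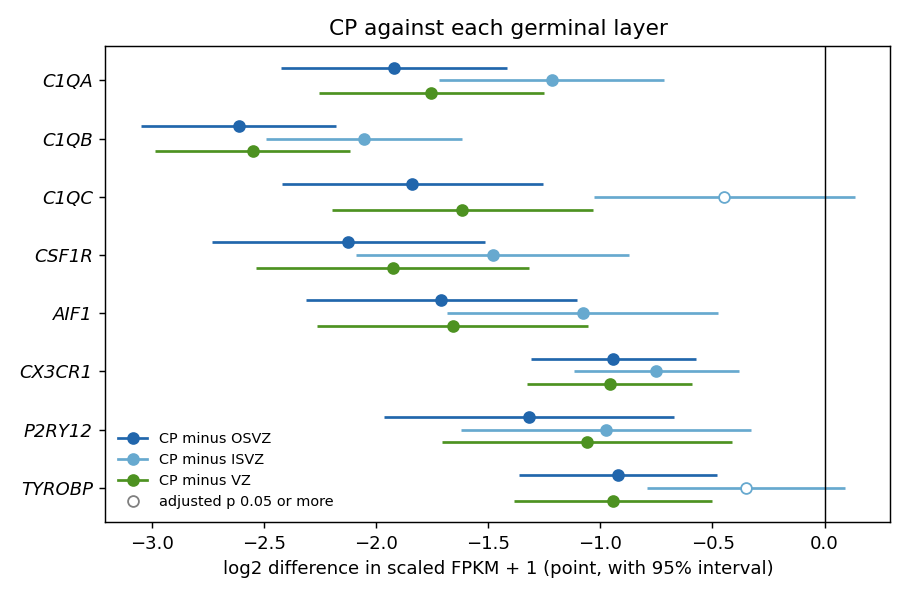
Log2 differences of scaled FPKM plus 1 for CP minus OSVZ, CP minus ISVZ and CP minus VZ, 1 row per gene, with the limma estimate as a point and its 95% confidence interval as a line. The intervals of C1QC and TYROBP for CP minus ISVZ, at −0.45 and −0.35, span 0, and all others lie below 0.

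Set against each germinal layer in turn, all 8 genes were lower in CP than in OSVZ, where 17.3% of tested genes were lower, by log2 differences between −2.61 for C1QB and −0.92 for TYROBP. All 8 were lower in CP than in VZ as well, where 28.7% were lower. Against ISVZ 6 of the 8 were lower, where 24.2% of tested genes were lower. The 2 that did not pass there were C1QC, at −0.45 (95% interval −1.03 to 0.13, adjusted p = 0.19), and TYROBP, at −0.35 (−0.79 to 0.09, adjusted p = 0.178). TYROBP passed against ISVZ once CP 2 was left out (adjusted p = 0.0142), and P2RY12, which had passed, did not without CP 3 (0.0549), ISVZ 1 (0.0690) or ISVZ 2 (0.0689). C1QC passed against ISVZ with a smaller pseudocount of 0.1 (adjusted p = 0.0455). As all but TYROBP reached the filter through germinal libraries alone, the counts here cannot be read against the shares of tested genes.

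Within the germinal layers the order of the mean levels was OSVZ, VZ, ISVZ, CP from high to low for 6 genes, and VZ, OSVZ, ISVZ, CP for CX3CR1 and TYROBP. OSVZ and VZ, at the top of that order, were not told apart: none of the 8 genes passed between them by limma, where 27.9% of all tested genes passed. The log2 difference of C1QB between OSVZ and VZ was 0.06 with a 95% interval of −0.37 to 0.50, and that of TYROBP −0.02 with an interval of −0.46 to 0.42. The widest interval was that of P2RY12, 0.26 with limits of −0.39 and 0.91, so differences of that size between OSVZ and VZ would not have been resolved.

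ISVZ had a lower mean than both OSVZ and VZ for all 8 genes, but most of these differences did not pass. The share of all tested genes with this order was not computed. Between OSVZ and ISVZ only C1QC passed, at 1.39 ± 0.26 (limma adjusted p = 0.0496), where 0.603% of tested genes passed. The median log2 difference was 0.60 over the 8 genes and −0.0034 over all tested genes. The C1QC call lay at the threshold and was lost when any single library of the 12 other than ISVZ 1 was left out, with adjusted p-values up to 0.201. Between ISVZ and VZ again only C1QC passed, at −1.17 ± 0.26 (adjusted p = 0.0199), where 8.72% of tested genes passed. This call was lost without ISVZ 2 (adjusted p = 0.05), ISVZ 3 (0.0584) or VZ 2 (0.0991). When ISVZ 1 was left out, C1QB passed in both comparisons (adjusted p = 0.0458 and 0.0470), and TYROBP passed between ISVZ and VZ without CP 2 (0.0322).

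A large part of the ISVZ spread lay in 1 library. ISVZ 3 was the lowest of the 9 germinal libraries for all 8 genes. As a percentage of the mean of ISVZ 1 and 2 it stood at 25.5% for P2RY12, 33.5% for CSF1R, 34.8% for AIF1, 51.4% for C1QA, 55.5% for C1QB, 56.1% for CX3CR1 and 71.6% for TYROBP. Its relative depth was 1.18, against 0.749 and 1.22 for ISVZ 1 and 2. The proliferation gene MKI67 ran the other way, with 44.1 FPKM in ISVZ 3 and 31.1 and 21.9 in ISVZ 1 and 2, and its part in the low values was not tested. The share of all tested genes with their lowest germinal value in ISVZ 3 was not computed.

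**Figure D3:**
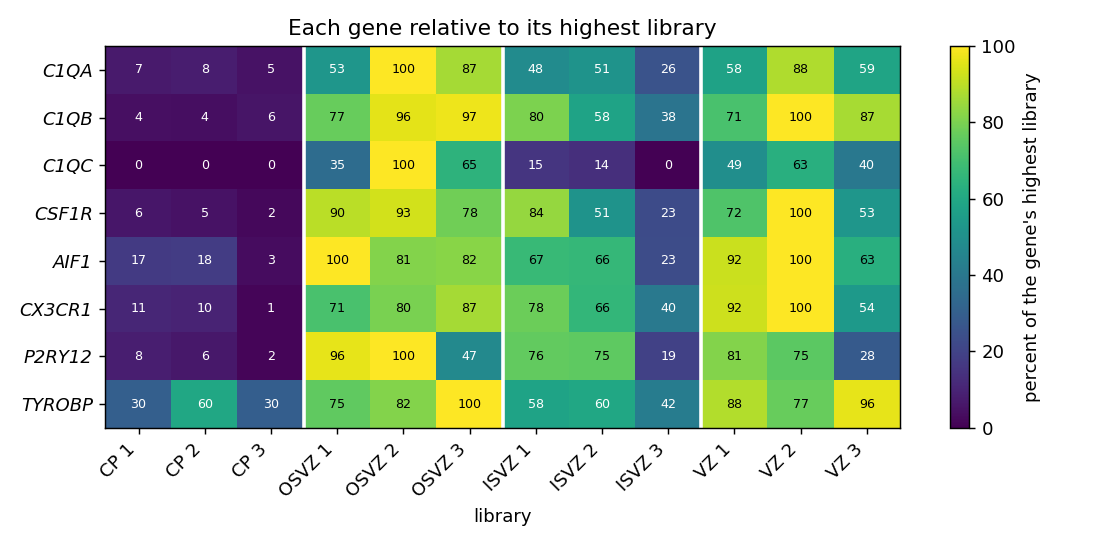
Each gene's level in each library as a percentage of that gene's highest library, with genes down the page, libraries from CP to VZ across it and colour for the percentage. Darker cells are lower: the CP columns are dark for 7 genes but reach 59.8% for TYROBP in CP 2, and the ISVZ 3 column is darker than the other germinal columns for every gene.

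Apart from the layers, the genes varied together to different degrees. After the layer means were subtracted, the Pearson correlation of each member with the mean standardised profile of the others over the 12 libraries was 0.88 for CSF1R, 0.84 for CX3CR1, 0.80 for C1QA, 0.78 for AIF1, 0.74 for C1QC, 0.69 for C1QB and 0.68 for P2RY12. TYROBP stood apart at 0.28. The 21 pairs without TYROBP had correlations of 0.37 to 0.93 and the 7 pairs with it 0.05 to 0.40. These are descriptions of 12 libraries that share depth and dissection within a library.

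Of 12386 other tested genes with a symbol, the 5 whose level over the 12 libraries was most like the mean profile of the 8 were SPI1 (Pearson r = 0.98), TLR4 (0.98), A2M (0.97), ADORA3 (0.97) and CYTL1 (0.97). SPI1 encodes PU.1, the transcription factor that commits cells to the myeloid lineage. It was listed at 0, 0.213 and 0.0219 FPKM in CP, against 0.892, 1.503 and 1.41 in OSVZ, 0.854, 0.764 and 0.316 in ISVZ and 1.41, 1.46 and 1.00 in VZ. Like the members, SPI1 was lowest in CP, with ISVZ 3 the lowest germinal library. A2M, a broad protease inhibitor, was at 0.288 to 1.22 FPKM in CP, against 11.6 to 20.3 in OSVZ, 4.71 to 12.9 in ISVZ and 8.10 to 16.0 in VZ. Over deviations from the layer means alone, the 5 most alike genes were SLC6A15li1 (r = 0.94), C3 (0.94), RSAD1 (0.93), MOK (0.93) and CD74 (0.91).

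The other genes of these pathways were read from lists in the same fit, as CP minus the mean of the germinal layers, in which 28.7% of all tested genes were lower and 24.0% higher. Many of these were under 1 FPKM in every CP library, among them ADORA3, FCGR1A, SPI1, TREM1, SIRPB1, CSF1, C3, CFD, CD74, IL1B and TLR4. Such genes reached the filter through germinal libraries alone, so their counts as lower cannot be read against the 28.7%. Of 18 other microglia genes 16 were found and 6 tested, of which 5 were lower in CP and none higher. The adenosine receptor ADORA3 fell by 1.08 on the log2 scale (SE 0.16, limma adjusted p = 0.000149), the cysteine protease CTSS by 0.87 and the Fc receptor FCGR1A by 0.72. ALOX5AP, a leukotriene synthesis protein, was at −0.46 and did not pass (adjusted p = 0.108). The 10 below the filter included TMEM119, which was listed at 0 in every CP, OSVZ and ISVZ library, and PTPRC (CD45), with means of 0.0211 FPKM in CP, 0.145 in OSVZ, 0.0760 in ISVZ and 0.160 in VZ. P2RY13, a purine receptor 7491 bases from P2RY12, was also below it, at 0.0233 FPKM in CP, 0.523 in OSVZ, 0.298 in ISVZ and 0.426 in VZ on average.

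SALL1, a transcription factor of microglia that neural progenitors also express, did not follow the order of the members. It averaged 0.799 FPKM in CP, 9.33 in OSVZ, 18.8 in ISVZ and 30.5 in VZ, with no overlap between neighbouring layers, and OSVZ was lower than VZ by a log2 difference of −1.61 ± 0.20 (limma adjusted p = 0.000358). It had the steps toward the ventricle seen in SOX2, which averaged 5.74 FPKM in CP, 42.2 in OSVZ, 106 in ISVZ and 157 in VZ. SPI1 and ADORA3 were among the 5 genes picked as most like the members, so their sharing of the members' pattern follows from that choice. SPI1 was at 1.27 FPKM in OSVZ and 1.29 in VZ, and ADORA3 at 1.46 and 1.499.

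Of 7 myeloid transcription factors 4 were tested and 2 were lower in CP, SALL1 by 3.40 and SPI1 by 0.92 (limma adjusted p = 0.00038). CEBPA, which other cells also use, was at 0.47 and did not pass (adjusted p = 0.192). Of 12 TYROBP partner receptors and downstream kinases and adaptors only 3 were tested, all lower in CP: the receptor TREM1 by 0.99, SIRPA by 0.76 and SIRPB1 by 0.58. With the 8 libraries numbered 1 and 2 none of the 3 passed (limma adjusted p = 0.0665 for TREM1, 0.0517 for SIRPA and 0.111 for SIRPB1), and SIRPB1 did not pass under quantile normalisation (0.0819) or without CP 1 (0.0625). TREM1 was listed at 0 in all CP libraries, against 0.356 to 1.78 FPKM in OSVZ, 0 to 1.09 in ISVZ and 1.11 to 2.05 in VZ. The 9 below the filter included the kinase SYK, at 0.297 FPKM in CP, 0.480 in OSVZ, 0.145 in ISVZ and 0.253 in VZ.

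Of 5 tested signals to microglia 1 was lower and 2 higher in CP. CSF1, a ligand of CSF1R, was at 0 to 0.0652 FPKM in CP, against 0.587 to 0.634 in OSVZ, 0.412 to 0.730 in ISVZ and 1.44 to 1.58 in VZ. Its level in VZ was above every other library, and CP was lower than the germinal mean by a log2 difference of −0.82 ± 0.11 (limma adjusted p = 8.56e-05). OSVZ was lower than VZ for CSF1, at −0.65 ± 0.13 (adjusted p = 0.00432), a comparison in which CSF1R itself was at 0.20 with an interval of −0.41 to 0.81. IL34, the other ligand, was at 2.13 to 3.13 FPKM in CP, 2.34 to 3.04 in OSVZ, 1.88 to 2.39 in ISVZ and 1.80 to 2.36 in VZ, and its difference of 0.20 did not pass (adjusted p = 0.191), though it passed as higher in CP under quantile normalisation (0.0304).

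CX3CL1, the ligand of CX3CR1, varied more within layers than between them, with 1.88, 2.48 and 0.686 FPKM in CP, 1.89, 1.46 and 8.59 in OSVZ, 1.12, 0.625 and 0.621 in ISVZ and 0.642, 1.30 and 0.958 in VZ. OSVZ 3 was far above the rest, and the CP difference of 0.09 ± 0.36 did not pass (adjusted p = 0.857). CD200, a neuronal surface protein that restrains myeloid cells, was higher in CP, at 146 to 194 FPKM, against 102 to 108 in OSVZ, 72.8 to 110 in ISVZ and 46.4 to 69.2 in VZ. Its CP libraries were above all others, by a log2 difference of 1.08 ± 0.15 (limma adjusted p = 0.000103). CD47, which signals to SIRPA, was higher in CP by 0.44 (adjusted p = 0.0126), and it did not pass without CP 1 (0.0688) or CP 3 (0.0724).

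Downstream of C1q the complement cascade was thinly covered: 16 of 18 components were found, 5 were tested, and C6 was listed at 0 in all 12 libraries. C3, the central component, was at 0.178 to 0.266 FPKM in CP, against 0.952 to 1.27 in OSVZ, 0.148 to 1.46 in ISVZ and 0.787 to 1.61 in VZ. All CP libraries were below every germinal library but ISVZ 3, and the log2 difference was −0.71 ± 0.20 (limma adjusted p = 0.0131), which did not pass without CP 1 (0.0509). C5 was lower in CP by 0.35 and CFD (factor D) by 0.98, and neither call held throughout, with adjusted p-values up to 0.0947 and 0.123 when single libraries were left out. CFP (properdin) was at −0.15 and did not pass. MASP1, a protease of the lectin pathway, was the 1 component higher in CP, with 9.34, 28.4 and 67.8 FPKM there, against 3.97 to 5.72 in OSVZ, 2.63 to 4.30 in ISVZ and 3.46 to 6.16 in VZ (log2 difference 2.40, adjusted p = 0.000566). C1S, a protease of the C1 complex, was below the filter, with 0.0471 to 0.187 FPKM in CP, 0.158 to 0.247 in OSVZ, 0.178 to 0.191 in ISVZ and 0.450 to 2.15 in VZ.

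Complement regulators went both ways, with 4 of 10 tested higher in CP and 2 lower, counts near the 24.0% higher and 28.7% lower of all tested genes. The synaptic regulators CSMD3 and CSMD1 were higher by 1.28 and 0.87 on the log2 scale (limma adjusted p = 0.000173 and 0.000319). Clusterin (CLU) was lower by a difference of −0.89 and vitronectin (VTN) by −0.53. CLU averaged 30.6 FPKM in CP, 32.8 in OSVZ, 32.3 in ISVZ and 188 in VZ, so that VZ alone stood out, and it did not pass without CP 1 (adjusted p = 0.0897); VTN did not without CP 3 (0.105). CD59 and CSMD2 did not pass. Of 10 complement receptors 7 were found and only CD93, an endothelial protein, was tested, at −0.43 (adjusted p = 0.0432), a call lost when any of 8 single libraries was left out. The phagocytic receptor chains ITGAM and ITGB2 were listed at 0 in all CP libraries and averaged 0.257 FPKM or less in the other layers.

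**Figure D4:**
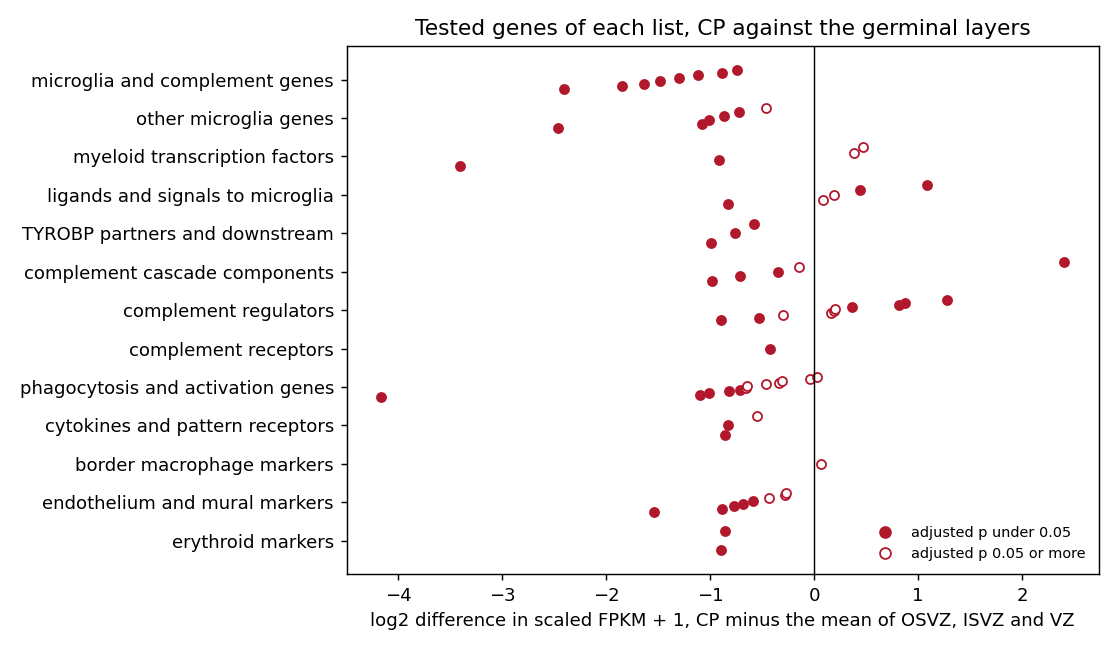
Log2 differences of CP minus the mean of the germinal layers for the tested genes of each list, with lists down the page and the members at the top. Points are genes, filled where the limma adjusted p is under 0.05; the members run from −2.41 for C1QB to −0.74 for TYROBP, and the regulators and ligands lie on both sides of 0.

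Of 14 phagocytosis and activation genes 12 were tested and 5 were lower in CP. The efferocytosis receptor AXL fell by 1.09, the lipid carrier APOE by 4.17, the lectin LGALS3 by 0.72 and the MHC class II chaperone CD74 by 1.01, all with limma adjusted p-values of 0.000877 or less. Neural progenitors express APOE and AXL as well, and both were highest in VZ, APOE at 7.39 FPKM in CP, 96.7 in OSVZ, 77.3 in ISVZ and 261 in VZ on average. CTSD and GAS6 did not pass, at −0.34 and −0.04. CD68, a lysosomal protein of macrophages, was at 2.31 to 5.20 FPKM in CP, within the 1.95 to 6.34 of the germinal libraries, so this marker did not share the members' pattern (chosen for mention after its values were seen). Of 12 cytokines and pattern receptors 3 were tested, and TLR4 and IL1B were lower in CP by 0.83 and 0.85, with IL18 at −0.55 (adjusted p = 0.0665), which passed with a pseudocount of 0.1 (0.032).

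Markers of other cells that such tissue could hold were read beside these results. Of 9 border macrophage markers 7 were found, 1 was tested and CD163 was listed at 0 throughout; their summed level was 1.70 to 2.45 FPKM in CP, 1.53 to 2.57 in OSVZ, 1.58 to 1.78 in ISVZ and 3.11 to 5.53 in VZ. The tested one, LYVE1, was at 0.07 and did not pass (adjusted p = 0.614). In VZ 2 the markers MRC1, F13A1 and PF4 stood at 0.478, 0.715 and 1.05 FPKM, above the other libraries, and 4 of the 8 members, C1QB, CSF1R, AIF1 and CX3CR1, were also highest in that library. In OSVZ, MRC1 and F13A1 were at or below 0.0631 FPKM and PF4 was at 0 to 0.501, against 0.138 to 1.05 for PF4 in VZ. The part of border macrophages in the members' levels was not tested. None of 8 monocyte and neutrophil markers passed the filter, their sums being 0.625 to 1.33 FPKM in CP, 0.386 to 0.843 in OSVZ, 0.342 to 0.984 in ISVZ and 0.566 to 1.22 in VZ. None of 8 lymphocyte markers did either, with NKG7 listed at 0 in all 12 libraries and sums of 0.0214 to 0.110 FPKM in CP, 0.246 to 0.687 in OSVZ, 0.339 to 0.531 in ISVZ and 0.196 to 1.06 in VZ.

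Blood vessel markers moved in the same direction as the members. All 11 endothelial and mural markers were found, 8 were tested, and 5 were lower in CP, with none at 0 in all libraries and sums of 18.5 to 32.6 FPKM in CP, 42.6 to 50.3 in OSVZ, 37.6 to 50.5 in ISVZ and 44.9 to 46.8 in VZ. The pericyte genes PDGFRB and RGS5 fell by 1.53 and 0.89 and the endothelial genes CLDN5 and TIE1 by 0.77 and 0.69 (limma adjusted p between 9.19e-06 and 0.00169). KDR did not pass, at −0.28, nor did PECAM1, at −0.43 (adjusted p = 0.0674). PECAM1 did pass as lower in CP with FPKM as deposited (0.0412), with equal totals (0.0489), and without CP 1 (0.00954) or ISVZ 2 (0.0349). In ISVZ 3, the germinal library with the lowest members, CLDN5 was at 7.66 FPKM, between 8.78 in ISVZ 1 and 7.17 in ISVZ 2, while CP 3, where the summed level of the members was the lowest of all 12, also had the lowest CLDN5, at 3.14. Of 9 erythroid markers 4 were found and 2 tested, and both were lower in CP, AHSP by 0.86 and ALAS2 by 0.89; the sums were 1.501 to 2.53 FPKM in CP, 3.55 to 4.70 in OSVZ, 4.24 to 7.52 in ISVZ and 6.34 to 8.73 in VZ. The part of vessels and blood in the members' difference was not tested. On the FPKM scale the mean sum in the germinal layers was 5.74 times that in CP for the members, 1.76 times for the vessel markers and 2.66 times for the erythroid markers.

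The ratio between members also differed with the replicate number in the labels. The level of P2RY12 over that of C1QB was 0.566, 0.483 and 0.0761 in CP 1 to 3, 0.350, 0.291 and 0.135 in OSVZ, 0.264, 0.361 and 0.140 in ISVZ and 0.319, 0.208 and 0.0914 in VZ. Number 3 was the lowest in all 4 layers. CSF1R over C1QB was likewise lowest in number 3, at 0.233 in CP, 0.484 in OSVZ, 0.355 in ISVZ and 0.365 in VZ, against 0.529 to 0.874 in the other 8 libraries. This pattern was noticed in the values and then described, and the labels do not say what the number stands for. With the 8 libraries numbered 1 and 2 alone, all 8 genes still passed as lower in CP than the germinal mean.

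**Figure D5:**
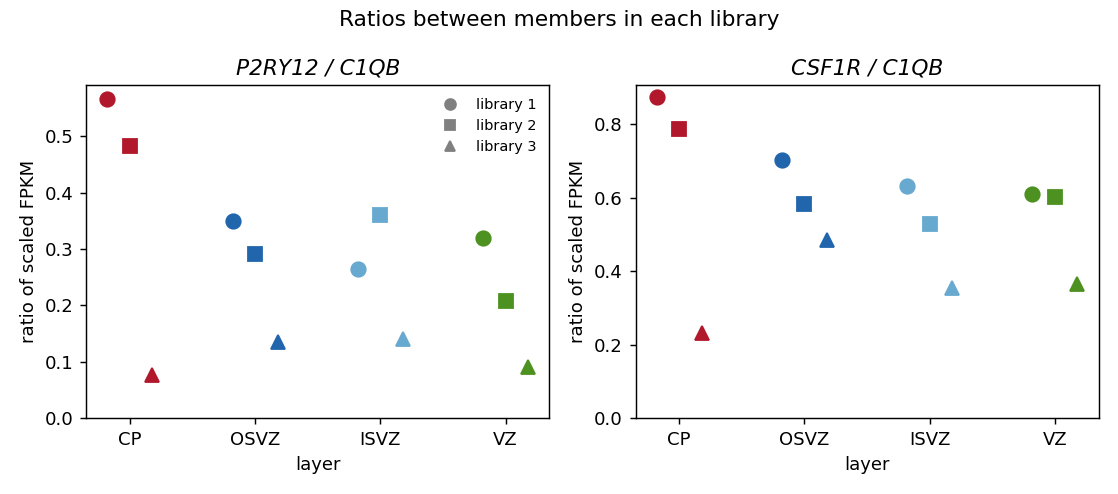
Ratios of P2RY12 to C1QB and of CSF1R to C1QB in each library, with layers from CP to VZ along the horizontal axis and marker shape for the replicate number. Number 3 is the lowest point in each layer in both panels.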

How the data were processed

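Poly(A) RNA from 12 laser-captured samples of Nissl-stained fetal tree shrew cortex was analysed, 3 each labelled CP, OSVZ, ISVZ and VZ. The labels give embryonic day 37 and the names of the deposited tables day 35; the labels were followed. The authors deposited 1 table of gene-level FPKM with bounds per library, in the layout of Cufflinks, per the file headers. The submitters' processing notes list HISAT2 and Cufflinks. Versions, genome build, annotation and strand setting, not given in the sources used here, could not be checked. Coordinates are those of the tables, with 1 added to each start because starts there count from 0. Gene IDs listed more than once (360) were summed and 4 with a failed status were left out.

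Scaling factors were median ratios to the geometric mean, taken over 10200 genes that reached 1 FPKM in each library. Read depth is unknown; the relative depth and fragment numbers were computed from the bounds, taking the half-width as 2 SD of a Poisson count, and cover counting error only. Genes that reached 1 in 3 libraries or more entered a fit with limma 3.58.1 in R 4.3.3, on log2 of scaled FPKM plus a pseudocount of 1 (4 layers in 1 fit, 8 residual degrees of freedom, intensity trend in the empirical Bayes step). The tests were a moderated F test and 7 contrasts, two-sided, with Benjamini-Hochberg adjustment over 14101 genes and a threshold of 0.05. The fit was tested on simulated data with known changes. No 2 libraries held identical values.

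The members and the 15 other gene lists were chosen with earlier results of these data known. All members are named, with up to 4 genes of each other list that passed in CP against the germinal mean (by smallest adjusted p), up to 2 tested ones that did not (by highest mean level), and the 5 genes most like the members by each correlation; other genes were named after their values were seen. Some genes of the lists are not reported here, although the counts include them. Other scalings, pseudocounts, filters, a replicate block and leaving out each library were tried.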

Additional observations from a re-analysis of the deposited data

How the results depend on the processing

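All 8 genes stayed lower in CP than in the germinal mean, in OSVZ and in VZ under FPKM as deposited, equal totals, quantile normalisation, a pseudocount of 0.1, no filter, and without any single library, except P2RY12 against VZ under quantile normalisation (adjusted p = 0.0723). With the 8 libraries numbered 1 and 2, an alternative chosen after seeing the data, TYROBP did not pass against OSVZ (0.0725). With a filter of 5 FPKM only C1QB and TYROBP could be tested. The members called were then 2 among the 4 layers, 2 for CP against the germinal mean, 2 against OSVZ, 1 against ISVZ, 2 against VZ, 0 for OSVZ against ISVZ and 0 for ISVZ against VZ. For OSVZ against ISVZ the count was also 0 under FPKM as deposited, equal totals, a pseudocount of 0.1, no filter, and numbers 1 and 2 alone; for ISVZ against VZ it was 0 with no filter and with numbers 1 and 2 alone. Leaving out single libraries gave 0 to 2 genes in each of these comparisons, 5 to 7 for CP against ISVZ and 7 to 8 among the 4 layers. The cause was not tested.

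P2RY12 did not pass among the 4 layers under quantile normalisation (adjusted p = 0.0674) or with no filter (0.0555), nor TYROBP with numbers 1 and 2 alone (0.1). Signs turned only where a difference was near 0 and not called. For OSVZ minus VZ these were CX3CR1 (0.0158) and TYROBP (0.0354) under quantile normalisation and AIF1 (−0.0752) with numbers 1 and 2, and for CP against the germinal mean LYVE1 (−0.0157) there. P2RY12 in ISVZ minus VZ was 0.0303 under quantile normalisation. Without single libraries the OSVZ minus VZ range was −0.0556 to 0.159 for C1QB, −0.0352 to 0.496 for C1QC, −0.112 to 0.149 for AIF1, −0.158 to 0.0668 for CX3CR1 and −0.126 to 0.051 for TYROBP. That of P2RY12 in ISVZ minus VZ was −0.337 to 0.222, and those of CX3CL1, GAS6 and LYVE1 in CP against the germinal mean were −0.129 to 0.396, −0.217 to 0.0938 and −0.0242 to 0.148.

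Among all tested genes 4045 were lower and 3390 higher in CP than in the germinal mean, against 4338 and 2904 with FPKM as deposited (59.9% of calls lower), 4203 and 3074 with equal totals, and 3440 and 3690 with quantile normalisation (48.2%). Same-numbered libraries had correlations of 0.063 to 0.425 between their deviations from the layer means. Of 18 pairs 16 were over 0.1, short of every pair, and the numbers were not taken as pairs. Between libraries of different numbers the mean correlations were −0.139 to −0.096. Deviations cancel within a layer, so positive same-numbered values make these negative, and they are no separate comparison. With the numbers not taken as pairs, the main p-values leave out whatever same-numbered libraries may share. All 12 libraries correlated best with their own number, a hint from the data that the labels do not explain. A replicate block left the counts of members called as they were (8 for CP against the germinal mean, 6 for CP against ISVZ, 1 for OSVZ against ISVZ), and moved the genes called between OSVZ and ISVZ to 206, against 85 without it. Under the block IL18 and PECAM1 passed as lower in CP (adjusted p = 0.0405 and 0.0423). That number was the least stable, at 0 with numbers 1 and 2, 8 with no filter, 19 with a pseudocount of 0.1, 38 with equal totals, 54 as deposited, 299 with a filter of 5, 231 with quantile normalisation, and 2 to 556 without single libraries. Between ISVZ and VZ 1229 genes were called, against 356 with numbers 1 and 2, 787 with no filter, 715 with a filter of 5 and 403 to 1374 without single libraries; with numbers 1 and 2 the F test called 4783 genes, against 7302, and OSVZ minus VZ 2092, against 3935. The values of C1QC in CP and ISVZ, and the CP values of C1QB, AIF1, CX3CR1 and P2RY12, rest on few or no fragments.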

Other observations

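Other genes were also ordered by the replicate number, and they are given as values chosen after they were seen. P2RY13 was lowest in number 3 in every layer, at 0.0531, 0.0167 and 0 FPKM in CP 1 to 3, 0.705, 0.689 and 0.175 in OSVZ, 0.440, 0.385 and 0.0698 in ISVZ and 0.749, 0.424 and 0.104 in VZ. IGF1, a growth factor that microglia can secrete, was likewise lowest there, at 0.324 in CP 3, 0.535 in OSVZ 3, 0.285 in ISVZ 3 and 0.166 in VZ 3, against 0.446 to 1.24 in the other 8 libraries.

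GPNMB, a glycoprotein of lysosome-rich phagocytes, was highest in number 3 in every layer, at 0.0485, 0.0624 and 0.367 FPKM in CP, 0.0199, 0.305 and 2.49 in OSVZ, 0.0698, 0.362 and 0.626 in ISVZ and 0.497, 1.53 and 3.86 in VZ. SPP1 (osteopontin) was highest in number 3 in the 3 germinal layers, at 0.493, 2.53 and 4.90 in OSVZ, 0.454, 1.95 and 2.86 in ISVZ and 4.0, 7.56 and 22.5 in VZ, but lowest in CP 3, at 1.04 against 5.14 and 1.45 in CP 1 and 2. LPL, lipoprotein lipase, was highest in number 3 in the same layers, at 4.23 in OSVZ 3, 2.23 in ISVZ 3 and 5.87 in VZ 3. Of all tested genes 2.62% were lowest in number 3 in all 4 layers and 3.31% highest. TTR, abundant in choroid plexus, was also lowest in number 3 throughout, and in VZ it stood at 529, 2514 and 33.8 FPKM in VZ 1 to 3. The part of choroid plexus in the VZ libraries was not tested, and the labels do not say what the number stands for.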
